A study of Mus musculus with 34 samples.

Results

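The genes described here make, sense and move sterols and fatty acids. There are 36 of them, chosen by name with earlier results of these data known, and all 36 were found among the 23812 rows of the RNA table. They fall into 16 enzymes of sterol synthesis, 5 genes of sterol sensing and of the SREBP regulators, 11 genes of fatty acid synthesis, elongation and desaturation, and 4 genes of sterol efflux and transport. RNA-seq was made from 2 activated samples (aB) and 2 resting samples (rB) of mouse spleen B cells. Cells came from mice labelled C56BL/6J, aged 6 to 8 weeks, with no transgene or deletion named, and were the fraction lacking CD43, a surface protein used to remove other spleen cells by magnetic labelling. The activated cells were cultured for 3 days with lipopolysaccharide (LPS) at 10 µg per ml, a bacterial component that drives B cells to divide and to become antibody-secreting cells. The resting samples are named as resting cells by their titles and source names and as controls by the series design, although their growth and treatment fields repeat the LPS culture. Whether the replicates are separate animals or cultures is not stated in the labels. The p-values therefore reflect how much these particular samples vary, and that variation could be technical alone. Open chromatin (FAIRE-seq), reporter activity (STARR-seq), H3K27ac, H3K4me3 and Hi-C contacts are described for activated cells alone, from 1 list per assay. For STARR-seq the activated cells were also transfected with the reporter library, at 60 h for 12 h of reporter or at 48 h for 24 h. All were harvested at 72 h, and the STARR peaks used are not split by these times.

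Cells make cholesterol from acetyl-CoA through mevalonate, isoprenoid diphosphates, squalene and lanosterol. When sterols in the endoplasmic reticulum are low, SCAP carries SREBP proteins to the Golgi, where proteases release the part that turns on genes of sterol and fatty acid synthesis. INSIG proteins hold SCAP back when sterols are plentiful, and the liver X receptors (LXR), activated by oxysterols, turn on efflux genes such as Abca1 and Abcg1. Dividing and secreting B cells need new membrane, for which both pathways supply lipid.

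The table does not name its unit, and its values are given here as FPKM, read fragments scaled to gene length and to sequencing depth. They summed to 285068 and 285129 in the aB samples and to 244602 and 287884 in the rB samples, and low values put the read depth of the first aB sample at 0.626 of the second, and that of the second aB sample at 1.16 and 1.19 times the rB samples. The lowest FPKM values therefore rest on the fewest reads in the first aB sample. All 6 B cell markers were present in every sample, with summed levels of 2005 and 1426 FPKM in aB against 3219 and 3590 FPKM in rB. Of these 6, 5 were lower in aB and 1 was not called. The 18 macrophage and myeloid markers summed to 25.5 and 32.0 FPKM in aB and to 755.4 and 1173 FPKM in rB, with C1qa and C1qb listed at 0 in both aB samples. Of these markers, 16 were lower in aB and 2 were not called. The 5 erythroid markers summed to 14.4 and 5.65 FPKM in aB against 1670 and 12150 FPKM in rB, so the second rB sample stood apart from the first in these genes. All 5 were lower in aB. Of 8 T and NK cell markers, 5 could be tested and were lower in aB, and 4 were listed at 0 in both aB samples. Of those tested, Cd4, Cd8a and Klrd1, and many of the myeloid and erythroid markers, passed the filter on low values through rB alone, so the direction of their calls was fixed by it. In bulk RNA, fewer cells of a type and less RNA per cell cannot be told apart.

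A gene was called where limma gave a Benjamini-Hochberg adjusted p under 0.05 over the 10863 genes tested. Of the 36 members, 27 were higher in aB, against 28.2% of all tested genes, and 3 were lower, against 26.2% of all tested genes. The other 6 were not called, while 54.4% of tested genes were called in either direction. Because the members were chosen with earlier results of these data known, their counts are a description and no test of the set. The median log2 difference, aB minus rB on the log2(FPKM + 1) scale, was 1.68 over the members and 0.03 over all tested genes. Both aB values lay above both rB values in 31 members, as in 41.5% of tested genes, and below them in 4, as in 39.1%. Acss2 was the member whose groups overlapped. All 36 members passed the filter on low values. Fads2 did so through its aB values alone, so the direction of its call was fixed by the filter.

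Every one of the 16 sterol synthesis enzymes was higher in aB, beside 28.2% of all tested genes. Their log2 differences ran between 1.13 for Ebp and 3.47 for Fdps with a median of 2.20, and all 16 were at least 2-fold higher on the FPKM + 1 scale, as were 14.2% of tested genes. Summed over the list, the level was 542.3 and 541.8 FPKM in the aB samples and 91.4 and 96.5 FPKM in the rB samples. For each enzyme both aB values lay above both rB values. All 16 were also called with any 1 sample left out, the second rB sample included.

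**Figure D1:**
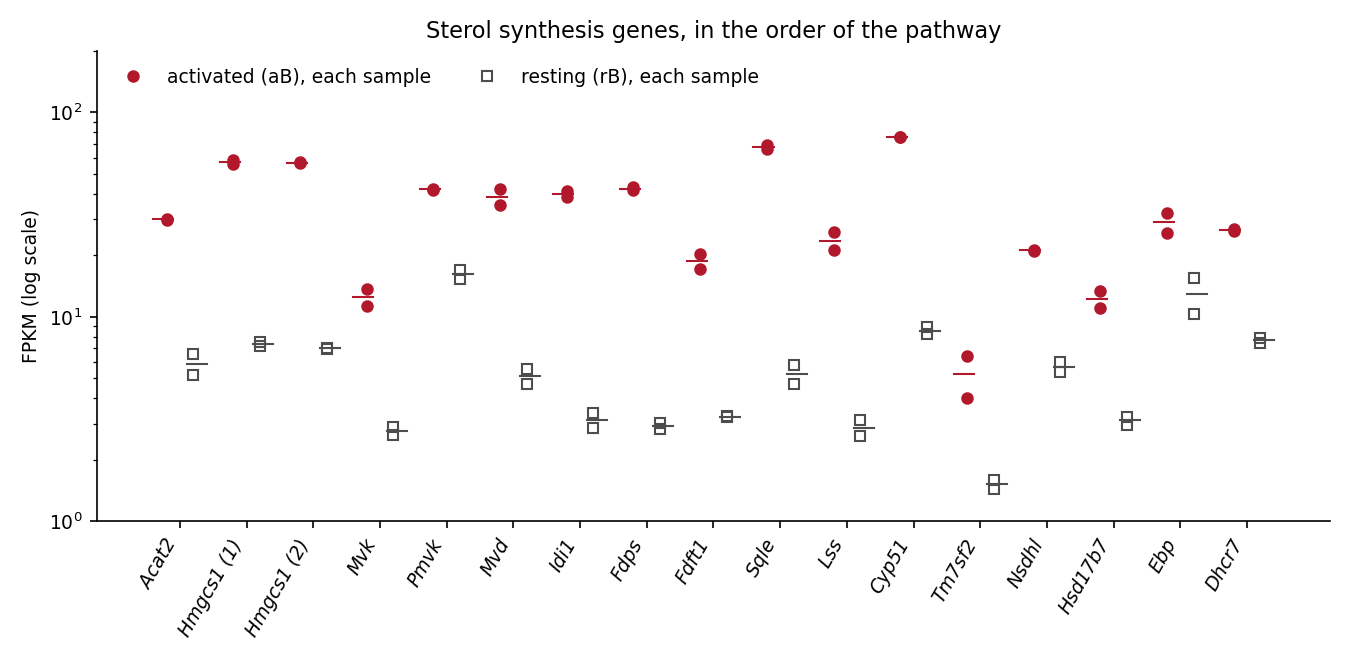
Levels of the sterol synthesis genes in FPKM (log axis), in the order of the pathway, with aB samples as filled circles, rB samples as open squares and a bar at each group's mean (n = 2 each). Hmgcs1 stands on 2 rows, and for each gene both aB points lie above both rB points.

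The first steps join acetyl groups into mevalonate. Hmgcs1, which makes HMG-CoA, stood on 2 rows with near-identical values. Both rows of Hmgcs1 lie on chromosome 13_random in mm9, at 114709 to 132325 and at 308619 to 326235. Its first row had 58.5 and 56.1 FPKM in aB and 7.50 and 7.22 FPKM in rB, a log2 difference of 2.80 (SE 0.15, adjusted p = 5.65e-05), and its second row a difference of 2.85. How reads matching both rows were counted is not given in the sources used here. The level of each row is therefore uncertain on its own, and Hmgcs1 was counted once. Acat2, which condenses acetyl-CoA, rose by 2.18 on the log2 scale, to 30.0 ± 0.23 FPKM in aB against 5.86 ± 0.96 FPKM in rB (SD, n = 2 each). Both genes at the entrance of the pathway were thus above 4-fold higher on the FPKM + 1 scale, at 4.54-fold for Acat2 and 6.98-fold for the first Hmgcs1 row.

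Mevalonate is then phosphorylated and decarboxylated to isopentenyl diphosphate. The kinase gene Mvk rose by 1.83, the second kinase gene Pmvk by 1.33 and the decarboxylase gene Mvd by 2.69 on the log2 scale. Pmvk had the highest rB level of these 3, with 41.9 and 42.2 FPKM in aB against 17.0 and 15.3 FPKM in rB. Mvd had 42.0 and 35.2 FPKM in aB against 4.70 and 5.54 FPKM in rB. The 2 genes thus reached similar levels in aB and differed in rB.

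Isoprenoid units are then assembled into longer chains. Idi1, which isomerises isopentenyl diphosphate (chromosome 13, 8884851 to 8891642, mm9), had 38.5 and 41.2 FPKM in aB against 2.86 and 3.37 FPKM in rB. Its log2 difference was 3.32 (SE 0.15, adjusted p = 4.04e-05). Fdps, the farnesyl diphosphate synthase gene (chromosome 3, 88897509 to 88905889, mm9), had 41.6 and 42.9 FPKM in aB against 3.02 and 2.81 FPKM in rB. Its log2 difference was 3.47 (SE 0.14, adjusted p = 3.25e-05). In both genes the rB samples lay near 3 FPKM and the aB samples near 40 FPKM, with replicates close together.

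Squalene formation and the steps on to lanosterol followed. Fdft1, the squalene synthase gene, had 20.3 and 17.2 FPKM in aB against 3.25 and 3.26 FPKM in rB. Sqle, the squalene epoxidase gene (chromosome 15, 59146646 to 59162748, mm9), had 66.0 and 69.4 FPKM in aB against 5.82 and 4.70 FPKM in rB, a log2 difference of 3.46 (SE 0.16, adjusted p = 4.34e-05). Lss, whose enzyme closes the sterol rings, had 21.3 and 25.9 FPKM in aB against 3.11 and 2.60 FPKM in rB. Of these 3 consecutive enzymes Sqle had the highest level in each of the 4 samples. The ratio of Sqle to Lss levels was 3.09 and 2.68 in aB and 1.87 and 1.81 in rB.

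After lanosterol, the enzymes trim methyl groups and shift double bonds. Cyp51, the lanosterol demethylase gene (chromosome 5, 4080673 to 4104697, mm9), had 75.7 and 75.3 FPKM in aB against 8.21 and 8.87 FPKM in rB, a log2 difference of 3.00 (SE 0.15, adjusted p = 5.2e-05). It had the highest aB level among the 16 enzymes. The 5 later enzymes rose by 1.73 for Nsdhl, 1.69 for Hsd17b7, 1.67 for Dhcr7, 1.28 for the reductase gene Tm7sf2 and 1.13 for the isomerase gene Ebp on the log2 scale. Tm7sf2 was the lowest of the list in aB, with 6.46 and 4.02 FPKM against 1.44 and 1.60 FPKM in rB. Ebp had 25.8 and 32.1 FPKM in aB against 10.3 and 15.5 FPKM in rB, and its replicates were the most spread in rB.

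Enzymes of sterol synthesis and uptake outside the 36 members were described from a list of 9. Of them 7 were higher, 1 was lower and 1 was not called, with a median log2 difference of 1.60. Among all tested genes 28.2% were higher and 26.2% lower. Msmo1, listed as Sc4mol, which removes methyl groups from sterols, had 129.1 and 103.1 FPKM in aB against 13.5 and 16.0 FPKM in rB (log2 difference 2.89). Cyb5r3, a reductase that supplies electrons to several pathways, fell by 0.57 on the log2 scale.

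Promoters are shown for 4 sterol synthesis genes, so that the sequence before genes with large differences can be read beside their values. Of the 36 members 27 had a promoter window in the RefSeq table (GRCm38.p6), and the 250 bases before the start were searched on both strands. TCACNCCAC is a form of the sterol response element, a site bound by SREBP proteins, and other forms of it were not searched. These letters were found in 1 of 13 sterol synthesis genes with a window, Hmgcs1. They were found in 1.21% of 8118 tested genes, in 1.49% of 2289 genes higher in aB and in 1.05% of all 32851 windows. The other 3 genes are those with a window and the largest log2 differences besides, chosen after their values were seen. Capitals mark TCACNCCAC and the CCAAT box, the letters CCAAT, which read ATTGG on the other strand. Each is written 5′ to 3′ on the strand of its gene and ends at the base before the start.
Idi1, chr13:8885356-8885605, plus strand: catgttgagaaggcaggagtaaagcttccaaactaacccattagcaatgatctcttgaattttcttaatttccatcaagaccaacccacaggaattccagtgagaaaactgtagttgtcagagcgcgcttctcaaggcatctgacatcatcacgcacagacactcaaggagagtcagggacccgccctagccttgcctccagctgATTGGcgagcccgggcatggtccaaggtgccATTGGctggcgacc
Cyp51, chr5:4104698-4104947, minus strand: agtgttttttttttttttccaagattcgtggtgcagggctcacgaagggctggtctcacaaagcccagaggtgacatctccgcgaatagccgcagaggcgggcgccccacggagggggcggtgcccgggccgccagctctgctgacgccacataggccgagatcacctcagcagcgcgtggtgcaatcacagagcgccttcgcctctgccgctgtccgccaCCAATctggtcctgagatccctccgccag
Hmgcs1, chr13:119690101-119690350, plus strand: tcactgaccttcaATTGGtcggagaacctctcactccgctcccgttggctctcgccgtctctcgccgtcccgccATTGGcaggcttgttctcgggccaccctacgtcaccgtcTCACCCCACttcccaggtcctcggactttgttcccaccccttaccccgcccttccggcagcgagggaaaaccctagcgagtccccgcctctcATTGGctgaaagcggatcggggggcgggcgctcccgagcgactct
Mvd, chr8:122443423-122443672, minus strand: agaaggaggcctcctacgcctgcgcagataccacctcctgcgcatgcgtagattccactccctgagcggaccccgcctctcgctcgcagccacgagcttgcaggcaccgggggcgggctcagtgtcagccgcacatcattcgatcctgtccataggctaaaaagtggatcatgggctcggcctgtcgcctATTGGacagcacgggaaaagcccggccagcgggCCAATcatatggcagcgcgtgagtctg

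In the Hmgcs1 window the TCACNCCAC match lay 137 to 129 bases before the start, and CCAAT boxes lay 237 to 233, 176 to 172 and 45 to 41 bases before it. Idi1 had boxes at 45 to 41 and 14 to 10 bases before its start, Cyp51 at 29 to 25, and Mvd at 60 to 56 and 27 to 23. CCAAT was a search added after the first counts of TCACNCCAC were seen. It was found in 12 of 13 sterol synthesis genes, 4 of 5 sensing genes, 4 of 8 fatty acid genes and 0 of 1 efflux gene with a window, against 33.8% of all windows, 41.4% of 8118 tested genes and 45.3% of 2289 genes higher in aB. All 4 genes shown hold these letters. GGGCGG, the letters of a GC box, was found in 22 of 27 members against 64.1% of tested genes and 32.7% of all windows, and CACGTG in 6 of 27 against 10.3% of tested genes and 6.02% of all windows. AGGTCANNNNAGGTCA, a form of the site bound by LXR, was found in 0 of 27 members and in 5 of all windows. These 3 searches were also added later, the 5 motifs can lie in the same bases, and a match is a description of letters, not a bound site.

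The regulators come next. Of the 5 genes of sterol sensing and SREBP, 3 were higher, none was lower and 2 were not called, with a median log2 difference of 0.83. The share called, 3 of 5, is near the 54.4% of all tested genes called in either direction and is no result about these genes as a list. Insig1 and Insig2 encode proteins with the same retention role. Insig1 (chromosome 5, 28397951 to 28405202, mm9) had 82.4 and 88.3 FPKM in aB against 9.05 and 8.84 FPKM in rB, a log2 difference of 3.12 (SE 0.15, adjusted p = 5.01e-05). Insig2 had 11.0 and 10.4 FPKM in aB against 12.2 and 14.3 FPKM in rB, a log2 difference of -0.28 (SE 0.15, adjusted p = 0.156), and was not called. The ratio of Insig1 to Insig2 levels was 7.52 and 8.47 in aB and 0.74 and 0.62 in rB, so the more abundant member of the pair was Insig1 in both aB samples and Insig2 in both rB samples.

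Srebf2 encodes the SREBP that acts mainly on sterol genes, and Srebf1 the SREBPs that act mainly on fatty acid genes. Srebf2 had 92.8 and 120.2 FPKM in aB against 51.3 and 49.2 FPKM in rB, a log2 difference of 1.06 (SE 0.21, adjusted p = 0.00544). Srebf1 had 22.1 and 29.8 FPKM in aB against 13.0 and 15.1 FPKM in rB, a log2 difference of 0.83 (SE 0.19, adjusted p = 0.0108). Both rose, with no overlap between the groups. The ratio of Srebf2 to Srebf1 was 4.21 and 4.04 in aB and 3.94 and 3.26 in rB, so Srebf2 was the more abundant in all 4 samples. Scap, the escort of SREBP proteins, had 14.7 and 22.5 FPKM in aB against 12.2 and 13.8 FPKM in rB, a log2 difference of 0.46 (SE 0.22, adjusted p = 0.114), and was not called. Its groups did not overlap, and the second aB sample stood well above the first. Without the first aB sample Scap was called (adjusted p = 0.0122), and without the first rB sample Srebf1 was not (adjusted p = 0.0798).

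Of 8 other genes of SREBP transport, cleavage and turnover, 3 were higher, 1 was lower and 4 were not called, with a median log2 difference of 0.29. The share called, 4 of 8, is near the 54.4% of all tested genes called in either direction and is no result about the list. Sec24a, a coat protein of the vesicles that leave the endoplasmic reticulum, was higher by 1.52, Syvn1, a ubiquitin ligase of that compartment, by 0.77, and Sec23a by 0.64. The ubiquitin ligase gene Rnf139 fell by 0.66. The protease genes Mbtps1 and Mbtps2, which cut SREBP proteins in the Golgi, had log2 differences of -0.25 and 0.07 and were not called.

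Of the 11 fatty acid members, 7 were higher, none was lower and 4 were not called. Among all tested genes 28.2% were higher and 54.4% were called in either direction. The 11 members had a median log2 difference of 1.01, below the 2.20 of the sterol enzymes. Their summed level was 802.2 and 868.3 FPKM in aB against 397.1 and 422.6 FPKM in rB. The 3 largest differences were those of the desaturase genes Fads2, Scd2 and Fads1, while the desaturase gene Scd1 was not called. Fads2 passed the filter through its aB values alone, which fixed the direction of its call.

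**Figure D2:**
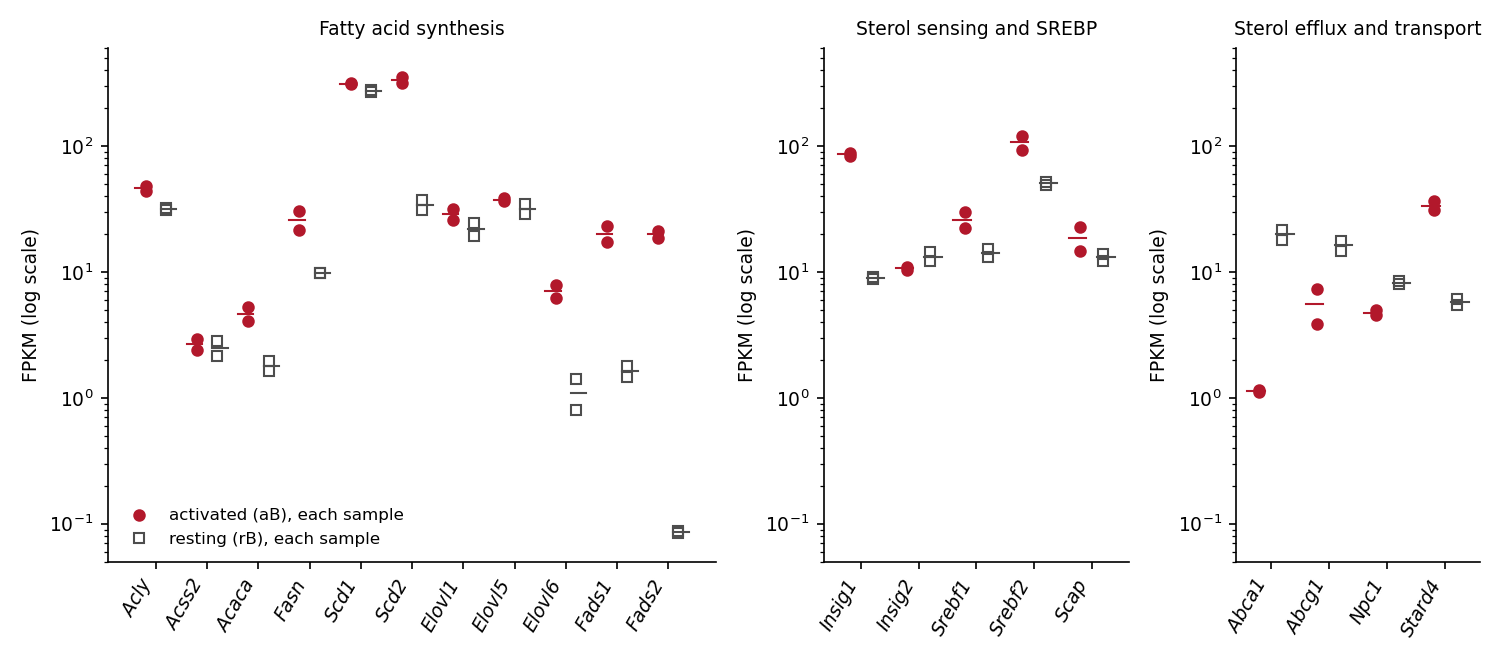
Levels in FPKM (log axis) of the fatty acid, sterol sensing and efflux genes, with aB samples as filled circles, rB samples as open squares and a bar at each group's mean (n = 2 each). Fads2 spans the widest gap, with aB points near 20 FPKM and rB points under 0.1 FPKM, Scd1 is high in all 4 samples, and Abca1, Abcg1 and Npc1 lie lower in aB.

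Carbon for both pathways starts as cytosolic acetyl-CoA. Acly, which cuts citrate to acetyl-CoA, had 44.1 and 48.1 FPKM in aB against 31.9 and 30.8 FPKM in rB, a log2 difference of 0.54 (SE 0.16, adjusted p = 0.0291). Acss2, which makes acetyl-CoA from acetate, had 2.93 and 2.39 FPKM in aB against 2.16 and 2.82 FPKM in rB, a log2 difference of 0.07 (SE 0.18, adjusted p = 0.754). The Acly groups were apart and the Acss2 groups overlapped. The Acly call was lost without the second aB sample (adjusted p = 0.0707), the first rB sample (0.148) or the second rB sample (0.175), and with samples scaled to equal sums (0.0709).

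Chain building rose. Acaca, the carboxylase that makes malonyl-CoA, had 4.06 and 5.23 FPKM in aB against 1.97 and 1.63 FPKM in rB (log2 difference 1.01, SE 0.18, adjusted p = 0.00412). Fasn, the synthase that builds palmitate, had 21.3 and 30.4 FPKM in aB against 9.75 and 9.77 FPKM in rB (log2 difference 1.30, SE 0.19, adjusted p = 0.0019). Elovl6, which lengthens palmitate, had 6.14 and 7.84 FPKM in aB against 1.40 and 0.803 FPKM in rB (log2 difference 1.93, SE 0.21, adjusted p = 0.00054). In all 3 genes both aB samples exceeded both rB samples. The other elongase members were not called. Elovl1, which acts on very long chains, had 25.9 and 31.3 FPKM in aB against 19.4 and 24.5 FPKM in rB (log2 difference 0.37, SE 0.19, adjusted p = 0.133). Elovl5, which acts on polyunsaturated chains, had 36.2 and 38.3 FPKM in aB against 28.6 and 34.8 FPKM in rB (log2 difference 0.23, SE 0.18, adjusted p = 0.294). Their groups did not overlap, but neither difference passed the test.

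Stearoyl-CoA desaturases, which put the first double bond into saturated chains, held the highest levels of all members in aB. Scd1 (chromosome 19, 44468939 to 44482199, mm9) had 313.2 and 311.0 FPKM in aB against 269.7 and 278.8 FPKM in rB, a log2 difference of 0.19 (SE 0.22, adjusted p = 0.489). Scd2 (chromosome 19, 44368165 to 44381352, mm9) had 312.6 and 349.7 FPKM in aB against 30.8 and 36.8 FPKM in rB, a log2 difference of 3.26 (SE 0.21, adjusted p = 8.37e-05). The neighbours thus stood at similar levels in aB, while Scd1 was far above Scd2 in rB. The ratio of Scd2 to Scd1 was 0.998 and 1.12 in aB and 0.114 and 0.132 in rB. The genes are related in sequence, and how reads matching both were counted is not given in the sources used here.

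Fads1 and Fads2, neighbours on chromosome 19, encode the desaturases that make polyunsaturated fatty acids from dietary precursors. Fads2 (10138653 to 10175993, mm9) had 18.5 and 21.1 FPKM in aB against 0.0852 and 0.0872 FPKM in rB, a log2 difference of 4.26 (SE 0.16, adjusted p = 2.54e-05). Fads1 (10257377 to 10271362, mm9) had 17.3 and 22.9 FPKM in aB against 1.46 and 1.80 FPKM in rB, a log2 difference of 2.99 (SE 0.19, adjusted p = 8.24e-05). Fads2 passed the filter on low values through its aB values alone, so a higher value was fixed for it by that choice. Its difference was the largest rise among the 36 members and stood at rank 16 of all tested genes. Its fold change of 19.1 is on the FPKM + 1 scale, which understates the change of a gene this low in rB. The ratio of Fads2 to Fads1 was 1.07 and 0.92 in aB and 0.0585 and 0.0484 in rB.

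A list of 14 further genes of fatty acid supply and elongation gave 6 higher, 1 lower and 3 not called among the 10 that passed the filter, with a median log2 difference of 0.90. Acsl3, which activates fatty acids with coenzyme A, was higher by 1.93, the citrate carrier gene Slc25a1 by 1.44 and Hacd3, listed as Ptplad1, a dehydratase of chain elongation, by 1.18. Acsl1, another activating enzyme, fell by 0.75. The isoprenoid branches that leave the sterol pathway gave 7 higher, 2 lower and 1 not called of 10, with a median of 0.75. Beside both lists, 28.2% of all tested genes were higher and 26.2% lower. Dhdds, which makes the dolichol chain that carries sugars for glycosylation, was higher by 1.68, Pdss1, which makes the ubiquinone tail, by 1.28, and Pggt1b, a subunit that attaches geranylgeranyl groups to proteins, by 0.97. Ggps1, which makes geranylgeranyl diphosphate, and Coq2, which joins the ubiquinone tail to its ring, fell by 0.41 and 0.42.

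**Figure D3:**
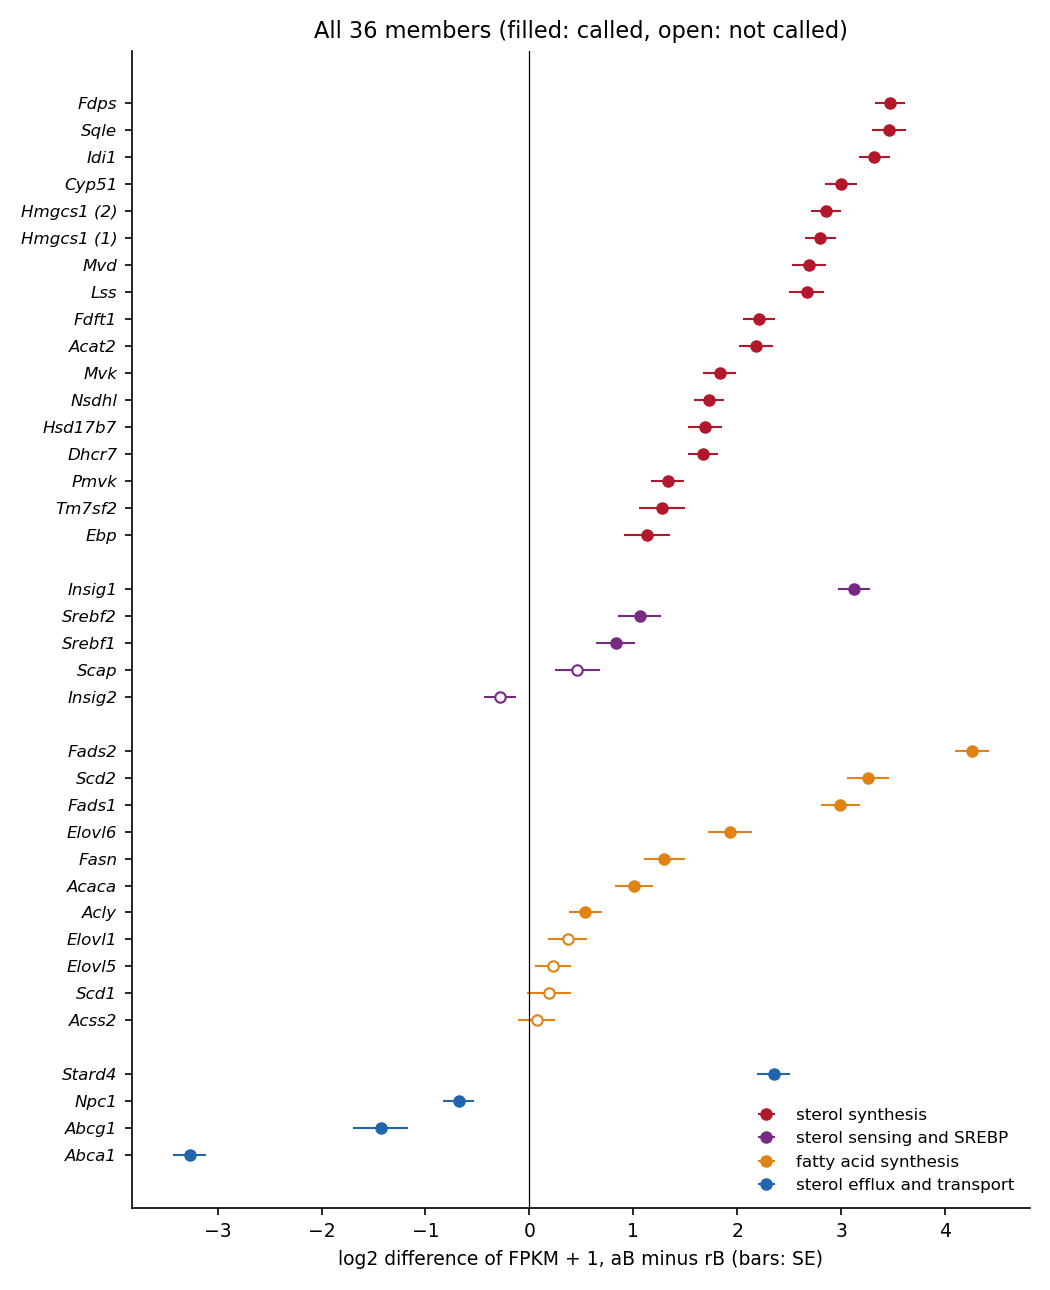
Log2 difference of FPKM + 1, aB minus rB, with its standard error, for the 36 members (Hmgcs1 on 2 rows), filled where called and open where not. The sterol enzymes lie between 1.13 and 3.47, the fatty acid genes between 0.07 and 4.26, and 3 of the 4 efflux and transport genes below 0.

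Efflux went the other way. Of the 4 genes of sterol efflux and transport, 3 were lower and 1 was higher in aB, beside 26.2% and 28.2% of all tested genes, with a median log2 difference of -1.06. Abca1, which loads cholesterol onto apolipoprotein (chromosome 4, 53043660 to 53172767, mm9), had 1.16 and 1.12 FPKM in aB against 18.0 and 21.6 FPKM in rB, a log2 difference of -3.27 (SE 0.16, adjusted p = 5.01e-05). Abcg1, which moves cholesterol to lipoproteins (chromosome 17, 31194638 to 31254926, mm9), had 3.84 and 7.28 FPKM in aB against 14.7 and 17.7 FPKM in rB, a log2 difference of -1.43 (SE 0.26, adjusted p = 0.00433). Both transporters lay lower in each aB sample than in either rB sample. Npc1, which releases cholesterol from lysosomes (chromosome 18, 12348202 to 12394895, mm9), had 4.55 and 4.94 FPKM in aB against 7.99 and 8.39 FPKM in rB, a log2 difference of -0.68 (SE 0.15, adjusted p = 0.00894). Stard4, a soluble carrier that moves cholesterol between membranes (chromosome 18, 33361074 to 33373470, mm9), was the exception, with 30.7 and 36.4 FPKM in aB against 6.12 and 5.44 FPKM in rB (log2 difference 2.35, SE 0.16, adjusted p = 0.000102). The Npc1 call was lost without the first rB sample (adjusted p = 0.0709) or the second (0.0875).

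Further genes of LXR, esterification and lysosomal sterol handling gave 8 lower, 3 higher and none without a call among the 11 of 14 that passed the filter, beside 26.2% lower and 28.2% higher of all tested genes, with a median log2 difference of -0.92. Nr1h3 and Rxra passed the filter through their rB values alone, so a lower value was fixed for them by that choice. Mylip, an LXR target that degrades the LDL receptor, had 8.84 and 6.16 FPKM in aB against 67.0 and 72.2 FPKM in rB and fell by 3.07. Nr1h3, the gene of LXR alpha, had 0.145 and 0.241 FPKM in aB against 4.73 and 7.04 FPKM in rB and fell by 2.51. Rxra, the gene of the partner receptor of LXR, fell by 1.98. Mylip, Nr1h3, Rxra, Abca1 and Abcg1 were called lower in aB, and so were 16 of the 18 macrophage and myeloid markers. Many of these markers passed the filter through rB alone, so the direction of their calls was fixed by it. The median log2 difference of those 18 markers was -4.17, and macrophages also express Abca1, Abcg1 and Nr1h3. Of the 6 B cell markers, 5 were lower and 1 was not called, with a median of -0.98. The tested T, NK and erythroid markers were lower too, several of them tested through their rB values alone. Csf1r, among the macrophage and myeloid markers, had 0.0852 and 0.0400 FPKM in aB against 36.1 and 42.0 FPKM in rB. It too passed the filter through rB alone. The part of macrophage RNA in the lower efflux and LXR values was not tested.

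**Figure D4:**
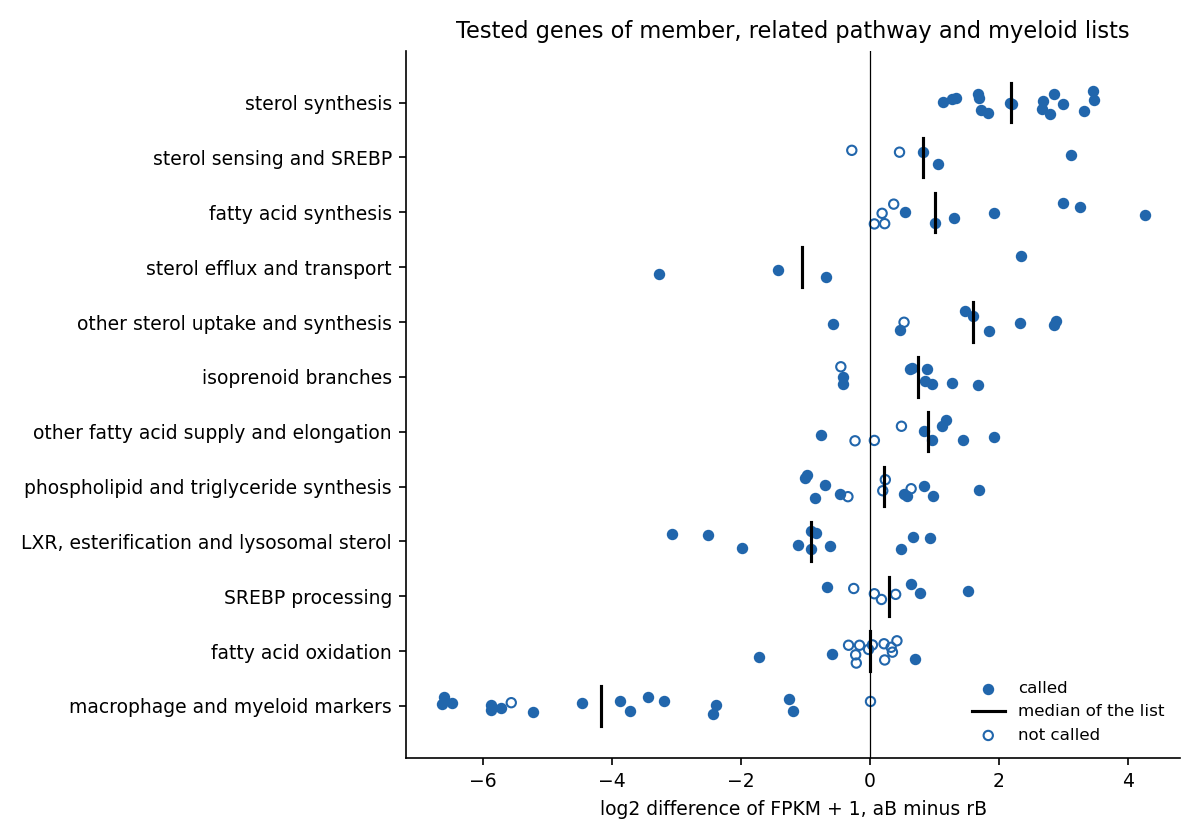
Log2 difference of FPKM + 1, aB minus rB, for each tested gene of the member lists, the related pathway lists and the macrophage and myeloid markers, filled where called and open where not, with a bar at the list's median. The sterol synthesis median is 2.20, the LXR list lies at -0.92 and the macrophage and myeloid markers at -4.17.

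Chromatin of activated cells was read at the loci of 35 members, since Hmgcs1 lies on a random chromosome without peaks. H3K4me3, a mark of active promoters, lay within 1 kb of either end of the locus in 33 of 35 members, against 88.7% of tested genes and 91.7% of genes higher in aB. H3K27ac, a mark of active promoters and enhancers, lay there in 33 of 35, against 85.7% of tested genes and 90% of genes higher in aB. Acaca and Insig2 were the members without either mark at an end. STARR peaks in FAIRE peaks, regions both open and active in the reporter, lay within 5 kb of 25 of 35 loci, against 62.3% of tested genes and 65.1% of genes higher in aB. These shares are near those of all tested genes and are no result about the members. Acaca held no H3K4me3 peak anywhere in its locus, while Insig2 held 1 inside it.

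All 15 sterol synthesis loci carried both marks, and so did all 4 efflux loci, whose RNA was mostly lower in aB. Abca1, at 1.16 and 1.12 FPKM in aB, had an H3K4me3 peak 1289 bp wide at an end, and Acat2, at 1139 bp, had the narrowest of the 33 members with such a peak. The widest lay at Scd2 with 6649 bp, then Scd1 with 4795 bp, Insig1 with 4500 bp and Sqle with 4048 bp. Scd1 and Scd2 were also the members with the highest RNA levels in aB. No super-enhancer of the 48 listed overlapped a member locus.

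There were 39 STARR peaks in FAIRE within 5 kb of member loci, of which 35 overlapped H3K27ac, 34 overlapped H3K4me3 and 3 overlapped neither. Their centres lay within 1 kb of a locus end in 19 and farther in 20. Mvd had the most, with 4, at chr8:124954259-124954558, chr8:124956300-124956600, chr8:124957023-124957323 and chr8:124967229-124967529 (mm9), all outside the gene's locus of chr8:124957495-124967322 by their centres. Dhcr7 had 3, at chr7:151008720-151009020, chr7:151015386-151015686 and chr7:151015875-151016175 (mm9), the last 2 of them inside the gene. Pmvk, Fdps, Srebf1, Srebf2, Acly, Acss2, Scd2, Elovl5 and Abcg1 had 2 each. At Insig1 the single peak lay inside the locus, 588 bp from its nearer end. Acat2, Idi1, Sqle, Nsdhl, Ebp, Scap, Fads1, Fads2, Scd1 and Abca1 had no STARR peak in FAIRE within 5 kb. Of these, Scap and Scd1 were not called. Members with large differences in RNA thus stood both with and without such a peak.

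**Figure D5:**
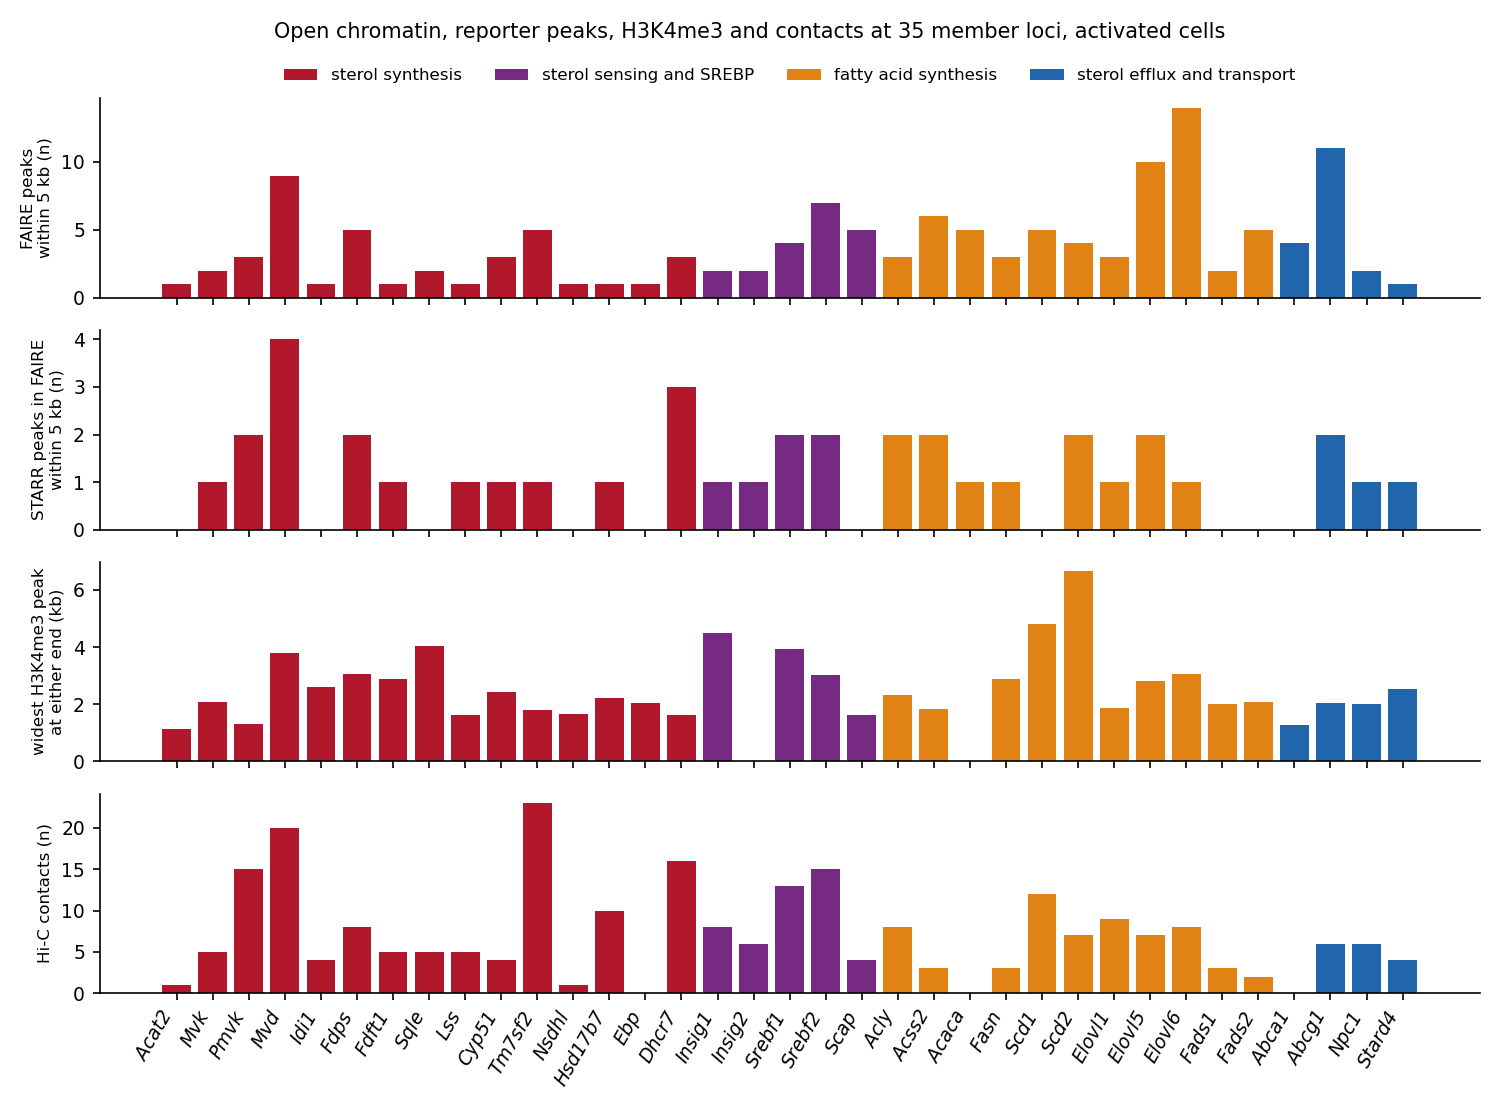
Counts of FAIRE peaks and of STARR peaks in FAIRE within 5 kb, the widest H3K4me3 peak at either locus end in kb, and the number of Hi-C contacts, for 35 member loci in activated cells, coloured by list. Mvd has the most STARR peaks in FAIRE (4), Scd2 the widest H3K4me3 peak and Tm7sf2 the most contacts (23).

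Hi-C contacts, pairs of regions joined in the authors' list, touched 32 of 35 member loci, against 81.1% of tested genes and 88.1% of genes higher in aB. That list is named as filtered enhancer-promoter interactions, so open or marked anchors may follow from how its pairs were chosen. Acaca, Abca1 and Ebp had none. Members had 246 contacts in all, 10 of them with both anchors in the locus, and the list gives anchors of 500 to 5000 bp that can nest, so the same pair can be counted more than once. Tm7sf2 had 23 contacts, Mvd 20 and Dhcr7 16, and Srebf2 and Pmvk had 15 each. The other anchor of the remaining 236 contacts held a FAIRE peak in 93.2%, a STARR peak in FAIRE in 75.4%, H3K27ac in 84.3% and H3K4me3 in 86.9%. Over all anchors of the list these shares were 89.8%, 71.6%, 85% and 80.1%.

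The desaturase pair on chromosome 19 gives an example of these contacts. Scd1 had 12 contacts, and the contact with the most reads, 96, joined its locus to an anchor 22373 bp away at chr19:44456386-44461386 (mm9), which held a FAIRE peak, a STARR peak in FAIRE, H3K27ac and H3K4me3. Scd2 had 7 contacts, and that with the most reads, 122, reached 48891 bp to chr19:44318834-44323834 (mm9), an anchor with 2 FAIRE peaks and 1 STARR peak in FAIRE at an end of Scd3. Most anchors of the filtered list are of this kind, with a FAIRE peak in 89.8% and a STARR peak in FAIRE in 71.6%. What these 2 anchors hold is therefore no result about the pair, of which Scd2 and not Scd1 was called higher in aB. Insig1 had 8 contacts, that with the most reads, 33, to an anchor 281449 bp away at an end of Paxip1. Reads favour wide anchors and short distances, and the authors' score puts these contacts in another order. Contacts were measured in activated cells alone, so no change with activation can be read from them.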

How the data were processed

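RNA values, peak lists and contacts came from mouse spleen B cells. Per the submitters' processing notes the build was mm9 and the tools were STAR, TopHat2, bedtools, HOMER, Bowtie and Bowtie2, whose roles and versions are not given. The deposited RNA table gives 1 value per gene and sample, with no unit, read totals or strand. The deposited values are neither whole nor of equal sums and were read as FPKM. Peak lists hold positions without scores. Contacts carry a read count and an unused score of each pair, both deposited by the authors over pooled replicates.

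The log2 of FPKM + 1 was compared with limma 3.58.1 in R 4.3.3 (no block, trend and robust options on) for genes reaching 1 FPKM in at least 2 samples, and p-values were adjusted over all of them by Benjamini-Hochberg. This scale understates changes of low genes. Named genes were, per member list, the 4 called with the largest difference, called members against the majority and members not called, with up to 3 genes per further list, of which 2 are not reported here. Members and lists were chosen with earlier results of these data known. Peak overlap needed 1 base, and peak positions are 1-based. Alternatives were other filters, scalings, a pseudocount of 0.1, limma options, a replicate block and leaving out each sample. Values of H3K4me1, of nascent RNA, of the plasmid library and of ChIP-seq in resting cells were not used here.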

Additional observations from a re-analysis of the deposited data

How the results depend on the processing

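Every alternative kept all 16 sterol synthesis genes higher in aB. Scaling to equal sums moved the median of all tested genes to -0.06, against 0.03 for the values as deposited. The median log2 difference of sterol synthesis was 2.42 with a pseudocount of 0.1, against 2.20, and ran between 2.13 and 2.27 when 1 sample was left out. Leaving out each sample in turn gave 1735 to 2859 genes higher, against 3066, and 1191 to 2834 genes lower, against 2844. The counts without the first rB sample were 1735 higher and 1229 lower, and 1191 lower without the second. Each such fit has 1 sample in a group, assumed to vary like the other group. Members higher then numbered 25 to 27 and members lower 2 to 3. By list, 2 to 4 sensing genes were higher, 5 to 6 fatty acid genes were higher and 2 to 3 efflux genes were lower. Their medians were 0.67 to 1.09 for fatty acid genes and -1.28 to -0.84 for efflux genes. Fads2 could not be tested without either aB sample, because it then failed the filter. Acss2, not called throughout, turned to -0.000325 with equal sums, -0.04 without the first aB sample and -0.06 without the first rB sample, and the 4 fits that left out a sample ran up to 0.21. The cause was not tested.

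With the replicate number as a block, 3317 genes were higher and 2964 lower, and 28 members were higher and 3 lower, Scap being added (adjusted p = 0.043). Deviations of same-numbered samples correlated at 0.124 over 2 pairs, so the numbers were not taken to pair the samples. Of 35 loci, 21 had a contact with at least 10 reads, against 32 with any contact, since fewer contacts remain. The count test in the plan was not run because the table holds no counts. Depth limits the lowest values, and peaks and contacts have no replicates.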

Other observations

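Genes that use fatty acids were read from further lists, beside 28.2% higher and 26.2% lower among all tested genes. Of 14 genes of phospholipid and triglyceride synthesis, 5 were higher, 5 were lower and 4 were not called in aB, with a median log2 difference of 0.22. Dgat2, among the 5 higher, passed the filter through its aB values alone, so its direction was fixed by that choice. Agpat4, an acyltransferase of phosphatidic acid synthesis, had 16.5 and 18.1 FPKM in aB against 4.39 and 4.84 FPKM in rB (log2 difference 1.70, adjusted p = 0.000233). Dgat1, which closes triglyceride synthesis, fell by 1.01, and Lpcat3, which puts polyunsaturated chains into phospholipids, was higher by 0.98.

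Of 14 genes of fatty acid oxidation, 1 was higher, 2 were lower and 11 were not called, with a median log2 difference of 0.01. Cpt1a, the carnitine transferase that admits long chains to mitochondria, had 5.98 and 6.13 FPKM in aB against 24.9 and 19.9 FPKM in rB (log2 difference -1.72, adjusted p = 0.000318). Acadl was higher by 0.70 and Acadm, a dehydrogenase of medium chains, fell by 0.58.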
